A study of Mus musculus with 11 samples.

Results

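Mouse embryonic stem cells whose histone chaperone subunit SPT16 can be degraded on demand were compared with and without degradation, across every gene. The cells are of the E14 line and carry SPT16 with a C-terminal V5 epitope and auxin-inducible degron tag (SPT16-V5-AID). They received 500 nM 3-indoleacetic acid (IAA), the auxin that sends a tagged protein to the proteasome, or the same volume of the solvent ethanol (EtOH), for 24 h. The libraries were taken by column name, as the IAA and EtOH columns of the tagged lines 10E and 11D, which are 7 of the 10 libraries of the count table. Line 10E gave 2 EtOH libraries and 1 IAA library, and line 11D gave 2 of each, so that 4 EtOH libraries were set against 3 IAA libraries with the line as an additive term. All groups shared feeder-free culture in serum with leukemia inhibitory factor (LIF), the GSK3 inhibitor CHIR99021 and a MEK inhibitor. Each tagged line is a separately targeted clone, and no label ties the codes 10E and 11D to the clone numbers. The labels list 11 samples, so 1 tagged IAA library is not analysed here, and the 3 libraries of untagged cells were not used.

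SPT16 and SSRP1 form FACT, a chaperone that takes H2A-H2B dimers off nucleosomes in front of RNA and DNA polymerases and puts them back behind them. Its loss can therefore touch transcription, replication and the packing of silent chromatin. Stem cells in this medium are held in a naive state by LIF signalling, by Wnt-like signals that follow GSK3 inhibition and by the block of ERK activation. The degron removes protein and leaves the gene intact, so the RNA of Supt16 is no measure of how much protein was lost, and protein was not measured in these files.

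Supt16 (chr14:52160414-52197416) RNA stood at 397 and 424 CPM in 10E EtOH, 369 and 399.7 in 11D EtOH, 284 in 10E IAA and 259 and 291 in 11D IAA, lower by 0.50 ± 0.09 on the log2 scale (edgeR FDR 0.000154), or -0.17 with library totals, where it did not pass (FDR 0.0992). Its partner Ssrp1 (chr2:85037234-85047109) stood at 324 and 343 CPM in 10E EtOH, 286 and 315 in 11D EtOH, 148 in 10E IAA and 154 and 144 in 11D IAA, a log2 fold change ± SE of -1.08 ± 0.09 (FDR 8e-08). In both genes every IAA library lay below every EtOH library.

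The libraries held 3100127 to 13510163 counts, and levels are given as CPM, counts scaled to a common library size with TMM factors, a method that assumes that most genes do not differ. Because bulk RNA was measured on this relative scale, fewer cells and less RNA per cell cannot be told apart. The expected number of genes with at least 1 count was computed at an equal depth of 3100127 counts. It was 22198 to 22627 in IAA libraries and 19303 to 19898 in EtOH libraries. The difference was 2824 genes (exact permutation test, two-sided p = 0.0571, the smallest that 4 against 3 libraries allow). The 100 most abundant genes took 16.9% to 21% of EtOH counts and 15.4% to 16.9% of IAA counts. Mitochondrially encoded genes took 1.67% to 2.26% of EtOH counts and 2.45% to 3.16% of IAA counts, without overlap (exact permutation test, two-sided p = 0.0571). These are shares of library totals, and the rise depends on the scaling. The 11 protein-coding genes tested among them had a median log2 fold change of 0.10 with TMM and 0.42 with library totals. With TMM 0 of them were called higher and 0 lower by edgeR. The part of RNA quality in the results was not tested. The non-coding transcript CT010467.1 took 0.129% to 1.58% of counts in 5 libraries, but 2.64% in 10E EtOH replicate 2 and, in line 11D, 4.27% in EtOH replicate 1. Results that rest on these 2 libraries are also given without them. Replicates were not copies of 1 library, with chi-square values of 8.67 to 25.5 per degree of freedom. The labels do not state whether they came from separate cultures, and the p-values rest on a spread that may be technical. The single 10E IAA library is assumed to vary like the others.

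Of 17904 genes tested, 5247 were called higher (29.3%) and 5034 lower (28.1%) in IAA libraries at a Benjamini-Hochberg FDR under 0.05 by edgeR's quasi-likelihood test. A value in parentheses after a gene is its log2 fold change, with ± its standard error, and "rose" and "fell" are used for called genes. The split rests on scaling: 51.0% of calls were higher with TMM and 73.0% with library totals alone, which move the median log2 fold change of all genes from 0.03 to 0.36. At least 2-fold higher were 3162 genes (17.7%) and at least 2-fold lower 1745 (9.75%), or 4445 and 886 with library totals. At 4-fold the counts were 1591 and 292, at 8-fold 727 and 76, and at 16-fold 327 and 23. With TMM the excess of 2-fold gains lay among scarce genes: of 9773 genes with a mean of at least 10 CPM, 577 were at least 2-fold higher and 972 lower, or 1137 and 422 with library totals. At 4-fold these genes gave 128 higher and 77 lower with TMM, or 190 and 30. Every IAA library lay above every EtOH library in 27.4% of genes tested and below in 25.1%. The same held for 85.4% of genes called higher and 83.5% of those called lower. The genes called higher together took 109077 to 113971 CPM in EtOH and 176652 to 185864 in IAA libraries, and those called lower 657892 to 738408 and 393339 to 426187. These sums follow from how the genes were chosen, and describe how much of the RNA pool they made up.

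Abundant transcripts were mostly lower, and those of 2 to 10 CPM more often higher than lower. Among 996 genes with a mean over 200 CPM, 6.83% were called higher and 70.7% lower, with a median log2 fold change of -0.55, or -0.22 with library totals. Genes of 50 to 200 CPM had 21.6% higher and 46.4% lower, genes of 10 to 50 CPM 28.7% and 31.1%, and genes of 2 to 10 CPM 35.3% and 18.5%. Their medians were -0.21, -0.04 and 0.23, which library totals turned into 0.13, 0.29 and 0.56. Under 0.5 CPM 57.9% were called higher, but a gene that scarce passes the filter on low counts mainly through the libraries where it is high, so this share supports nothing.

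**Figure D1:**
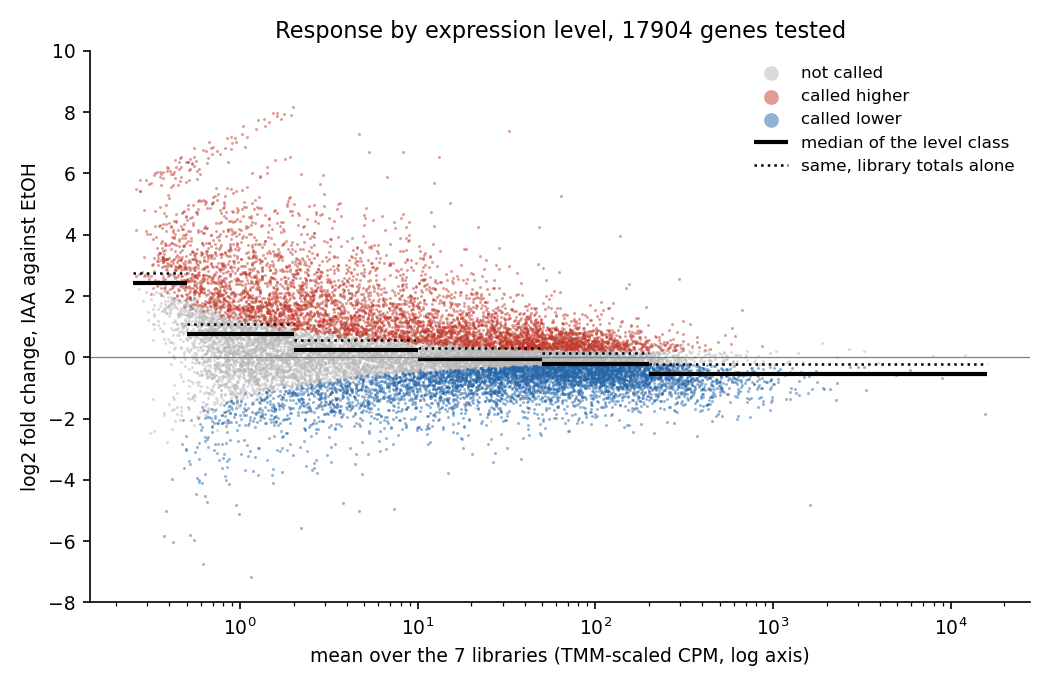
Each point is 1 of the 17904 genes tested, with its mean CPM over the 7 libraries (log axis) against its log2 fold change in IAA against EtOH libraries; red and blue points were called. The solid bars, medians of 6 level classes, fall from 2.42 under 0.5 CPM to -0.55 over 200 CPM, and the dotted bars show the same with library totals.

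The aryl hydrocarbon receptor (AhR) is a ligand-activated transcription factor that pairs with ARNT and binds a short core, GCGTG, to switch on enzymes that oxidise aromatic compounds. Its textbook targets Cyp1b1 and Cyp1a1, which encode cytochromes P450, were among the sharpest gains. IAA and the loss of SPT16 come together in this comparison, and an effect of the compound and one of the loss cannot be told apart in it. The promoters of both genes are shown with that core in capitals, as the 250 bases before the annotated start on the gene's own strand (RefSeq, GRCm38.p6). Cyp1b1 lies at chr17:79715062-79715311 on the minus strand, with the core on the opposite strand 76 bases before the start, and Cyp1a1 at chr9:57697363-57697612 on the plus strand, with the core 54 bases before it.
Cyp1b1: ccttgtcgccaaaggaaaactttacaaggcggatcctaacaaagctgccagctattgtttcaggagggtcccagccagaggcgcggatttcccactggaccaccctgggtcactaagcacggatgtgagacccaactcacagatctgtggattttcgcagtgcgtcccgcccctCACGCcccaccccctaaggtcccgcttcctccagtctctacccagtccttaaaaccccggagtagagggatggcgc
Cyp1a1: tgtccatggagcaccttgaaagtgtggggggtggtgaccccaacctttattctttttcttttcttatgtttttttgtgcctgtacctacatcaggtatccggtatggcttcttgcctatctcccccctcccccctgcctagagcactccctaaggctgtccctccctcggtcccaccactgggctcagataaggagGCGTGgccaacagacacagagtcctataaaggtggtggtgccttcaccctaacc

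GCGTG on either strand was present in 50.7% of the 9410 promoters of tested genes with a single entry, counted over 250 bases before and 50 after the start. Genes called at least 2-fold higher held it in 43.0% and those at least 2-fold lower in 46.6%. Among genes with a mean of at least 10 CPM the shares were 58.3% and 50%, against 56.0% of all.

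Cyp1b1 (chr17:79701537-79715061) stood at 0.678 and 0 CPM in 10E EtOH, 0 and 0.826 in 11D EtOH, 82.1 in 10E IAA and 65.0 and 80.0 in 11D IAA, a log2 fold change of 7.38 ± 0.32 (edgeR FDR 2.53e-10). It was near 0 in every EtOH library and high in every IAA library. Cyp1a1 (chr9:57687928-57703824) stood at 1.76 and 0.604 CPM in 10E EtOH, 0.948 and 9.18 in 11D EtOH, 120.5 in 10E IAA and 143 and 175 in 11D IAA (5.25 ± 0.35, FDR 9.41e-09). One EtOH library, 11D EtOH replicate 2, was above the other EtOH libraries in Cyp1a1, and still far below the IAA libraries. Of the AhR list, 6 of 11 tested members were higher and 1 lower (median 0.46, or 0.79 with library totals). The others higher were the repressor gene Ahrr (3.70), Cyp1a2 (3.93), the quinone reductase gene Nqo1 (0.71) and Tiparp (0.46), named after their values were seen. The call of Tiparp ended without 10E IAA replicate 1 (FDR 0.16). Ahr itself did not pass (0.11 ± 0.16, FDR 0.561), and its partner gene Arnt fell by 0.96 ± 0.10.

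The most abundant genes that rose at least 2-fold included H3f3b, which encodes the replication-independent histone H3.3, and Mknk2, which encodes a kinase of the cap-binding factor eIF4E. Their promoters are shown because both hold the TATA box letters TATAAA at the usual place, as the 100 bases before the start (RefSeq, GRCm38.p6), with the box in capitals. H3f3b lies at chr11:116024505-116024604 and Mknk2 at chr10:80676294-80676393, both on the minus strand, and the boxes begin 27 and 30 bases before the start.
H3f3b: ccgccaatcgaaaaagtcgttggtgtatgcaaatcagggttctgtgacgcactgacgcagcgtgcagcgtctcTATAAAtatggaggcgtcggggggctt
Mknk2: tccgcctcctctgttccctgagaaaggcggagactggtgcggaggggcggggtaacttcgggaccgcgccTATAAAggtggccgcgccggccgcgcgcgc

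Mknk2 (chr10:80665327-80678112) stood at 97.1 and 121 CPM in 10E EtOH, 94.4 and 78.8 in 11D EtOH, 566 in 10E IAA and 592 and 509 in 11D IAA (2.55 ± 0.11, edgeR FDR 2.53e-10). H3f3b (chr11:116021912-116027962) stood at 420.2 and 387 CPM in 10E EtOH, 397 and 304 in 11D EtOH, 1120.5 in 10E IAA and 1042 and 1024 in 11D IAA (1.53 ± 0.10, FDR 9.41e-09). No IAA library overlapped the EtOH libraries in either gene. TATAAA beginning 45 to 16 bases before the start was found in 69 of the 6098 promoters (1.13%) of genes with a mean of at least 10 CPM. It was in 15 of 319 genes called at least 2-fold higher (4.70%), in 12 of 564 called at least 2-fold lower (2.13%), and in 0.829% of genes not called. The 15 were H3f3b, Mknk2, the water and glycerol channel gene Aqp3, Fam83d, Baiap2, Cyp1a1, the tubulin gene Tubb2a, Mylip, Cdkn2aip, Ccn1, the MHC class I gene H2-D1, Trim63, Ecm1, Muc1 and Fos. On either strand the AP-1 motif TGANTCA stood in 6.90% of genes at least 2-fold higher and 4.26% of those at least 2-fold lower at this level, against 3.87% of all. The CRE letters TGACGTCA stood in 5.02%, 2.13% and 3.85%. These are matches of letters and not sites, and the shares were not tested.

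The other abundant genes that rose at least 2-fold were Txnip, which encodes a thioredoxin-binding regulator of glucose uptake (1.10 ± 0.13), the autophagy receptor gene Sqstm1 (1.19 ± 0.10), Ubfd1 (1.08 ± 0.09) and the dipeptidase gene Cndp2 (1.05 ± 0.10). Sqstm1 went from 201 ± 17.2 to 457 ± 46.0 CPM (SD, n = 4 and 3). The most abundant genes that fell at least 2-fold were Fn1 for fibronectin (from 4323 ± 528 to 1997 ± 197 CPM), the naive-state factor gene Tfcp2l1 (from 3084 ± 239 to 1163 ± 55.2 CPM), the beta tubulin gene Tubb5 (from 2667 ± 112 to 1319.7 ± 184 CPM), the ribosomal protein gene Rpl4 (from 2447 ± 199.6 to 1221 ± 92.3 CPM), the ubiquitin ligase gene Nedd4 (from 2122 ± 118 to 1028 ± 34.6 CPM) and the glucose transporter gene Slc2a3 (from 2061 ± 142 to 934 ± 66.6 CPM). Their log2 fold changes lay between -1.38 and -1.03 with TMM, and with library totals only Tfcp2l1 kept a 2-fold drop (-1.05). Exons of Txnip, Sqstm1, Ubfd1, Fn1, Tfcp2l1 and Rpl4 overlap those of another gene, and their counts may include reads of it.

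Among genes with at least 5 CPM in EtOH libraries the steepest rise was that of Arfgef3, a member of the ARF exchange factor family. Arfgef3 (chr10:18581839-18743949) stood at 7.86 and 4.03 CPM in 10E EtOH, 4.42 and 5.51 in 11D EtOH, 101 in 10E IAA and 106 and 106 in 11D IAA (4.25 ± 0.17, edgeR FDR 1.05e-10). The next were Kctd12, an auxiliary subunit of GABA-B receptors (3.55 ± 0.14), the homeobox gene Hoxb9 (3.18 ± 0.18), Hspa2, a testis-rich HSP70 chaperone (3.06 ± 0.14), and Perp, a p53-induced membrane protein of desmosomes (3.02 ± 0.15). Efnb2, the ephrin-B2 ligand (2.99 ± 0.15), the matricellular gene Ccn2 (2.92 ± 0.20) and Micall2, which organises junctional actin (2.88 ± 0.15), completed the 8. Hspa2 stood at 10.7 and 14.4 CPM in 10E EtOH, 13.6 and 9.64 in 11D EtOH, 118 in 10E IAA and 84.2 and 82.1 in 11D IAA. All 8 were above their EtOH range in each of the 3 IAA libraries. Of genes under 0.5 CPM in EtOH, Cyp1b1, the prostaglandin synthase gene Ptgs2 and Trim67 reached the highest IAA levels, followed by Rcsd1 (from 0.230 ± 0.131 to 15.3 ± 2.90 CPM) and the inner ear gene Otog. Otog had 3 counts in all EtOH libraries and 296 in IAA libraries, and its pooled CPM was 134 times higher in IAA (exact 95% interval 45.3 to 652, counting error only).

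Among genes with at least 20 CPM in EtOH libraries the steepest fall was that of Chac1, whose product degrades glutathione and which the stress factor ATF4 induces. Chac1 (chr2:119351229-119354381) stood at 44.6 and 24.7 CPM in 10E EtOH, 16.7 and 13.1 in 11D EtOH, 2.90 in 10E IAA and 1.17 and 0.853 in 11D IAA, a log2 fold change of -3.79 ± 0.29 (edgeR FDR 3.59e-08). Mirg, a maternally expressed imprinted RNA that hosts microRNAs, stood at 1.76 and 2.11 CPM in 10E EtOH, 119.7 and 119 in 11D EtOH, 0.669 in 10E IAA and 14.6 and 9.71 in 11D IAA (-3.32 ± 0.21). Mirg was scarce in line 10E under both treatments, and its log2 fold change was -1.53 there and -3.38 in 11D. Rapgef3, an exchange factor that cyclic AMP activates (-3.16 ± 0.23), the stem cell gene Utf1 (-2.97 ± 0.34), and the zinc finger genes Zkscan8 (-2.67 ± 0.16) and Zbtb20 (-2.66 ± 0.17) also fell. The histone genes H3c10 (-3.12 ± 0.88) and H2ac8 (-2.83 ± 0.86) belonged to this set only through the 2 EtOH libraries rich in CT010467.1, and without these gave -0.17 (FDR 0.682) and -0.04 (FDR 0.935). Their calls also ended without 11D EtOH replicate 1 (FDR 0.103 and 0.0817), without 11D IAA replicate 2 (0.0688 and 0.0897) and, for H2ac8, without 10E EtOH replicate 2 (0.0561). Exons of Arfgef3, Kctd12, Ccn2, Trim67, Mirg, Rapgef3 and Zbtb20 overlap those of another gene.

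**Figure D2:**
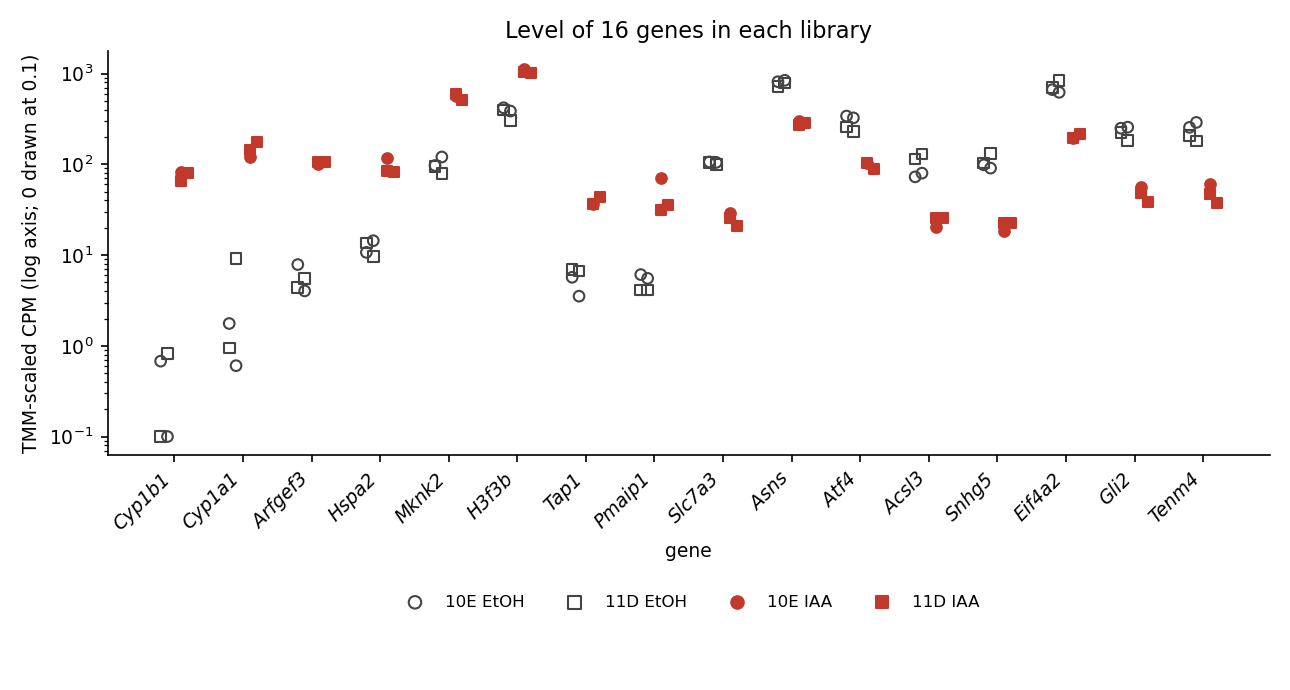
Level of 16 genes in each of the 7 libraries as TMM-scaled CPM on a log axis, with open symbols for EtOH, red symbols for IAA, circles for line 10E and squares for 11D. In each gene plotted the red symbols lie apart from the open ones, above them from Cyp1b1 to Pmaip1 and below them from Slc7a3 to Tenm4.

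Most genes with at least 10 CPM that span over 200 kb fell. Span is the distance from the first to the last annotated exon, and the classes hold 9231 protein-coding genes with a mean of at least 10 CPM, of which 23.5% were called higher and 41.2% lower. Up to 10 kb the median log2 fold change was -0.15, from 10 to 50 kb -0.08, from 50 to 100 kb -0.20, from 100 to 200 kb -0.39 and over 200 kb -0.77. With library totals these medians were 0.19, 0.25, 0.13, -0.06 and -0.44, so the medians of the classes over 100 kb lay below 0 under both scalings. For 100 to 200 kb this did not hold at 10 to 50 CPM, where the median was -0.21 with TMM and 0.12 with library totals. Of the 345 genes over 200 kb, 7.83% were called higher and 73.9% lower, and their median was -0.76 in line 10E and -0.78 in line 11D. The difference was present at each level from 10 CPM up: over 200 kb the medians were -0.75 at 10 to 50 CPM, -0.78 at 50 to 200 CPM and -0.97 over 200 CPM, against 0.01, -0.10 and -0.48 for genes of 10 to 50 kb. Genes over 200 kb at 2 to 10 CPM had a median of -0.26 (0.08 with library totals), against 0.17 (0.50) for genes of 10 to 50 kb. At 0.5 to 2 CPM there was no such gap, with 0.79 for both. Exonic length ordered the genes less: classes from up to 2 kb to over 8 kb had medians of -0.19, -0.14, -0.12 and -0.25, and among genes with 2 to 8 kb of exons the 102 that span over 200 kb had -0.79. Genes over 200 kb took 3.03% to 3.31% of protein-coding counts in EtOH libraries and 2.25% to 2.40% in IAA libraries (exact permutation test, two-sided p = 0.0571, the smallest possible).

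**Figure D3:**
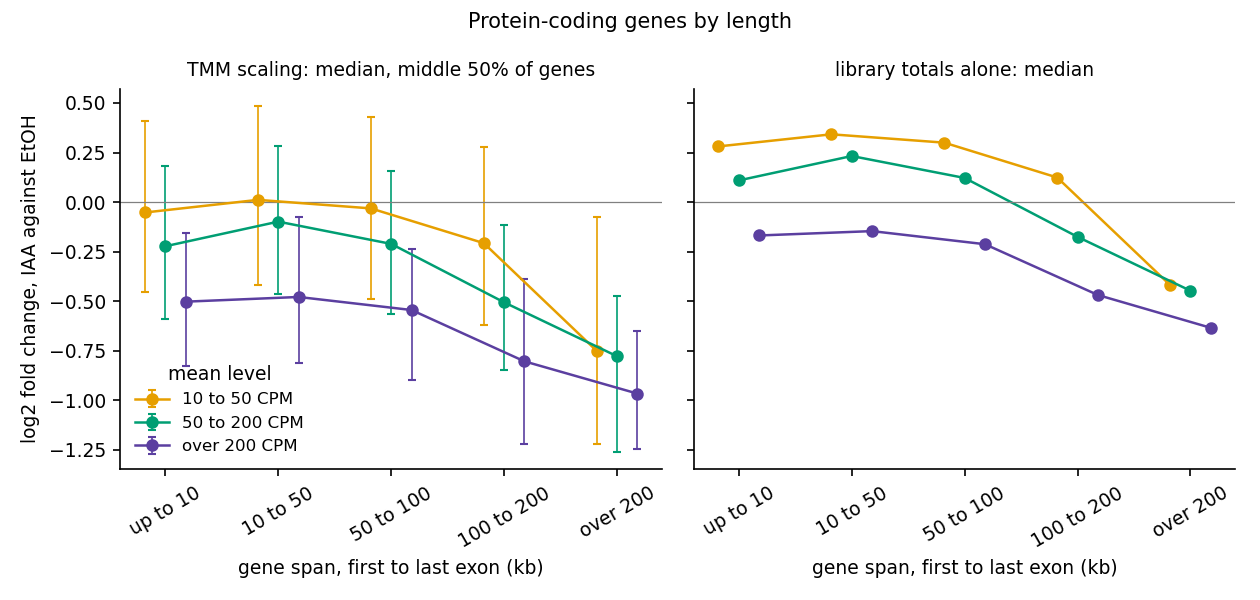
Median log2 fold change of protein-coding genes in 5 classes of gene span, for mean levels of 10 to 50, 50 to 200 and over 200 CPM; bars on the left span the middle 50% of genes, and the right panel shows medians with library totals. In both panels the 3 lines drop from 10 to 50 kb towards the class over 200 kb, where the medians on the left are -0.75, -0.78 and -0.97.

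The 6 longest genes with at least 50 CPM are given as examples from that class, chosen after their values were seen, and add no support to it. Tenm4 (chr7:96171246-96911093), a transmembrane teneurin, stood at 256 and 289.8 CPM in 10E EtOH, 209 and 182 in 11D EtOH, 60.9 in 10E IAA and 47.2 and 37.8 in 11D IAA (-2.20 ± 0.11, edgeR FDR 7.76e-10). Dmd for dystrophin (-1.25 ± 0.10), the axon guidance receptor gene Robo1 (-1.40 ± 0.11), Etl4 (-1.21 ± 0.09) and Auts2 (-0.74 ± 0.12) fell too. Zfhx3 did not pass (0.07 ± 0.15, FDR 0.729). Exons of Tenm4 and Etl4 overlap those of another gene.

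Genes on the X chromosome lay lower than those on autosomes. Of 274 X-linked protein-coding genes with at least 10 CPM, 14.6% were called higher and 57.7% lower. Their median was -0.50 (-0.17 with library totals), against -0.15 (0.18) for 8946 autosomal genes. The medians of single autosomes ran from -0.25 to -0.08. The gap was present within classes of span, with X-linked medians of -0.40 up to 10 kb and -0.27 from 10 to 50 kb, against -0.14 and -0.08 on autosomes. On the Y chromosome 6 of 7 protein-coding genes tested were lower and 0 higher by edgeR (also 0 by DESeq2 and 0 before adjustment, at p under 0.05). The lower ones were the RNA helicase gene Ddx3y (-1.35), the histone demethylase gene Uty (-1.15), Uba1y (-1.23), Zfy1 (-2.07), Gm47283 (-2.52) and Eif2s3y (-0.25, or 0.09 with library totals). Usp9y did not pass (0.95). The call of Eif2s3y ended without any library but 10E EtOH replicate 1 or 11D EtOH replicate 1 (FDR up to 0.161).

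Long non-coding RNAs under 50 CPM were more often higher than lower. Of 2622 long non-coding genes 42.6% were called higher and 9.88% lower (median 0.78, or 1.11 with library totals), and of 472 annotated as antisense 46.8% and 8.69%. At matched levels of 2 to 10 CPM long non-coding genes had 44.0% higher and 10.5% lower, protein-coding genes 34.6% and 20.5%, and pseudogenes 20.7% and 26.2%. The direction turned with level: the 246 long non-coding genes of 10 to 50 CPM had 43.1% higher and 23.6% lower, and the 24 of 50 to 200 CPM 4.17% and 75%, with a median of -0.73. Of the 2622 genes, 1190 lay at 0.5 to 2 CPM and 165 below, where passing the filter favours genes that are high in 1 group. An antisense RNA shares its locus with a coding gene, and since no source used here states that the counting used strand, reads of the pair may not be told apart. Zinc finger genes of the Zfp series ran the other way, with 62 of 382 higher and 156 lower, and a median of -0.24 that library totals turn to 0.09. Solute carrier genes (Slc) split into 97 higher and 74 lower of 266.

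Lists of protein synthesis and RNA handling held more lower than higher members with TMM, which library totals turned round for mRNA decay and proteasome subunits. These lists hold abundant genes, with median levels of 291.6 CPM for translation factors, 302.8 for splicing factors and 54.6 to 206 for the others. Among all genes 28.1% were lower, but 46.4% at 50 to 200 CPM and 70.7% over 200 CPM. The share lower was near that of other genes at such levels for translation factors (23 of 34), splicing factors (29 of 38) and mRNA decay (14 of 34). For nuclear pore and transport genes (20 of 34, median level 206 CPM) it lay between the shares of those levels. Among translation factors 0 of 34 were higher and 23 lower (median -0.40; 7 and 12 with library totals, median -0.07). None was higher by DESeq2 either (0), or by edgeR before adjustment (0 at p under 0.05). Eif4a2, an RNA helicase of the cap-binding complex, stood at 666 and 622 CPM in 10E EtOH, 703 and 838 in 11D EtOH, 195 in 10E IAA and 194 and 216 in 11D IAA (-1.84 ± 0.10, FDR 1.72e-09). Its cofactor gene Eif4b fell by 1.64 ± 0.11. Aminoacyl-tRNA synthetases, which charge tRNAs, showed more losses than gains: 1 of 19 were higher and 14 lower (median -0.79; 4 and 13 with library totals, median -0.46). Dars (-1.43 ± 0.10) and Gars (-1.29 ± 0.09) fell and Wars, an interferon-inducible member, rose (0.85 ± 0.11). Without 11D IAA replicate 1 the higher members were 2. Host genes of small nucleolar RNAs, non-coding transcripts whose introns yield guides for ribosomal RNA modification, fell nearly throughout: 0 of 16 were higher and 15 lower (median -1.21; 0 and 13 with library totals, median -0.87). None of them was higher by DESeq2 (0) or by edgeR before adjustment (0 at p under 0.05). Snhg5 stood at 98.8 and 90.8 CPM in 10E EtOH, 104 and 132 in 11D EtOH, 18.3 in 10E IAA and 22.4 and 22.4 in 11D IAA (-2.39 ± 0.12, FDR 8.22e-10). Snhg17 fell by 1.98 ± 0.11, while Snhg8 did not pass (-0.41).

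Splicing factors were mostly lower: 2 of 38 were higher and 29 lower (median -0.54), or 8 and 19 with library totals (median -0.20). Genes over 200 CPM as a whole had 70.7% lower and a median of -0.55. The branch point protein gene Sf3b1 went from 681 ± 112 to 323 ± 31.5 CPM (-1.12 ± 0.10) and Hnrnpc fell by 0.91 ± 0.09, while Mbnl1 (0.83 ± 0.16) and Hnrnph1 (0.30 ± 0.09) rose. For nuclear pore and transport genes 3 of 34 were higher and 20 lower (median -0.42; 11 and 14 with library totals, median -0.09). The GTPase gene Ran (-1.42 ± 0.11) and the export factor gene Cse1l (-1.15 ± 0.09) fell, and Nup50, Pom121 and Nup35 each rose by 0.44. Nup35 was named after its value was seen, and its call ended without any library but 10E EtOH replicate 2 or 10E IAA replicate 1 (FDR up to 0.106). In mRNA decay 6 of 34 were higher and 14 lower (median -0.20; 14 and 10 with library totals, median 0.14). The scaffold gene of the CCR4-NOT deadenylase, Cnot1 (-1.42 ± 0.10), and the decapping enzyme gene Dcp2 (-1.19 ± 0.09) fell. Btg2, which recruits that deadenylase and restrains growth, went from 55.3 ± 11.6 to 273 ± 21.7 CPM (2.26 ± 0.12), and Zfp36, a destabiliser of AU-rich messages, rose by 1.61 ± 0.16. Proteasome subunits followed the scaling: 2 of 31 were higher and 19 lower (median -0.30; 8 and 4 with library totals, median 0.03), and 11 were lower without 10E IAA replicate 1. The catalytic subunit gene Psmb5 (-1.02 ± 0.14) and Psma3 (-0.69 ± 0.10) fell and Psmd8 (0.54 ± 0.09) and Psmd13 (0.34 ± 0.10) rose. Exons of Eif4a2, Snhg5, Snhg17, Pom121, Cnot1, Zfp36, Psmb5 and Psmd13 overlap those of another gene, which for the host genes are the small RNAs they carry.

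Genes of the integrated stress response were more often lower than higher. ATF4 is the transcription factor of the integrated stress response and switches on amino acid synthesis and uptake. In its list 5 of 26 were higher and 13 lower (median -0.54), or 9 and 11 with library totals (median -0.21). The median level of the list was 51.3 CPM. All genes of 50 to 200 CPM had 21.6% higher and 46.4% lower (median -0.21), and those of 10 to 50 CPM 28.7% and 31.1% (median -0.04). Asparagine synthetase, Asns (chr6:7675169-7693254), stood at 814 and 844 CPM in 10E EtOH, 717 and 787 in 11D EtOH, 298 in 10E IAA and 274 and 283 in 11D IAA (-1.45 ± 0.09, edgeR FDR 5.37e-09), with no overlap between the groups. Pck2, the mitochondrial PEP carboxykinase (-1.92 ± 0.13), and Atf4 itself (-1.48 ± 0.11, named after its value was seen) fell. The higher members were the growth inhibitor gene Ddit4 (0.86), the kinase genes Eif2ak1 (0.58) and Eif2ak4 (0.41), Atf5 (0.80) and Sesn2 (0.41). The last 3 were named after their values were seen, and Ddit3 for CHOP did not pass (0.53). Without 10E IAA replicate 1 (FDR 0.184) Atf5 was not called. Of amino acid transporters 5 of 23 were higher and 10 lower (median -0.24; 10 and 7 with library totals, median 0.09), with 3 higher without 11D EtOH replicate 1 or without 11D IAA replicate 2. The arginine and lysine carriers Slc7a3 (from 104 ± 3.23 to 25.4 ± 4.18 CPM, -2.04 ± 0.12) and Slc7a1 (-1.09 ± 0.09) fell, and Slc43a2 (1.62 ± 0.14) and Slc7a8 (2.05 ± 0.27) rose.

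Enzyme genes of lipid synthesis were mostly lower with TMM, and their regulators went both ways. For sterol and fatty acid synthesis 4 of 33 were higher and 24 lower (median -0.43; 8 and 12 with library totals, median -0.10). The fatty acid ligase gene Acsl3 stood at 72.8 and 80.0 CPM in 10E EtOH, 114 and 130.1 in 11D EtOH, 20.3 in 10E IAA and 25.9 and 25.5 in 11D IAA (-2.14 ± 0.12, FDR 1.71e-09). The elongase gene Elovl6 fell by 1.47 ± 0.10. Scap, the sterol sensor that escorts SREBP, and Srebf1, which encodes SREBP-1, rose by 1.38 ± 0.11 and 0.83 ± 0.12. Srebf2, which encodes SREBP-2, fell (-0.45 ± 0.11), though not with library totals (-0.11, FDR 0.334), and was named after its value was seen. Hsd17b7 (0.46), named after its value was seen, rose as well, and was not called without 10E IAA replicate 1 (FDR 0.315). Protein folding genes split. Of the endoplasmic reticulum stress list 9 of 22 were higher and 9 lower (median 0.09; 12 and 3 with library totals, median 0.43). The chaperone gene Dnajb9 (1.43 ± 0.16) and the sensor gene Ern1 for IRE1 (0.96 ± 0.12) rose, while its target Xbp1 (-1.36 ± 0.12) and the chaperone gene Hsp90b1 (-0.60 ± 0.10) fell. Of heat shock chaperones 7 of 21 were higher and 9 lower (median -0.25; 9 and 7 with library totals, median 0.09). The stress-inducible Hspa1b went from 2.14 ± 0.722 to 25.5 ± 12.2 CPM (3.69 ± 0.25) and its near-identical neighbour Hspa1a rose by 4.48 ± 0.35, a pair whose reads may be split between them. The mitochondrial chaperones Hspa9 (-1.33 ± 0.10) and Hspd1 (-0.85 ± 0.09) fell. Of NRF2 and glutathione genes 6 of 23 were higher and 9 lower (median -0.34; 8 and 5 with library totals, median -0.01). Sqstm1 and the heme oxygenase gene Hmox1 (1.02 ± 0.14) rose, and the thioredoxin gene Txn1 (-0.62 ± 0.09) and Nfe2l2, which encodes NRF2 (-0.71 ± 0.10), fell. In lysosome and autophagy genes 10 of 34 were higher and 12 lower (median -0.06; 18 and 4 with library totals, median 0.27). Wipi1 (1.13 ± 0.11) rose and the beta-galactosidase gene Glb1 (-1.42 ± 0.12) and Gabarapl1 (-1.32 ± 0.19) fell. Exons of Pck2, Eif2ak1, Slc43a2, Acsl3, Elovl6, Scap, Srebf1, Dnajb9, Hsp90b1, Hspa1a, Hspd1, Glb1 and Gabarapl1 overlap those of another gene.

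Interferon response genes held more higher than lower members. Of the 30 genes listed 21 were tested, and of these 12 of 21 were higher and 3 lower (median 1.55; 17 and 1 with library totals, median 1.88). Scarce members pass the filter on low counts mainly through the libraries where they are high, so the count and median describe the tested members and not the list. The median fell to between 0.53 and 1.03 without any library but 10E EtOH replicate 1 or 11D EtOH replicate 1, lowest without 11D IAA replicate 2, and was 0.49 with at least 1 CPM in 3 libraries. The AhR list had medians of 0.53 and 0.49 under these last 2 settings. The peptide transporter gene Tap1 (chr17:34187553-34197225) stood at 5.69 and 3.52 CPM in 10E EtOH, 6.95 and 6.70 in 11D EtOH, 36.8 in 10E IAA and 37.0 and 43.3 in 11D IAA (2.76 ± 0.18, edgeR FDR 6.36e-09). Every IAA library was above the EtOH libraries in Tap1. The members lower were Trim25 (-0.48, or -0.15 with library totals, FDR 0.162), Irf3 (-0.95) and, named after its value was seen, Bst2 (-0.61). Stat2 (0.16), Irf9 (0.34) and Ddx58 for RIG-I (0.09) did not pass. NF-kappaB and cytokine genes split evenly with TMM: 3 of 18 were higher and 3 lower (median 0.11; 9 and 2 with library totals, median 0.44), and 1 was lower without 11D IAA replicate 2. Cxcl16 (3.13 ± 0.49), Csf1 (2.47 ± 0.53) and Birc3 (0.73) rose, and Nfkb1 (-0.67 ± 0.11), Traf1 (-2.05 ± 0.61) and Nfkbie (-0.90) fell, with Birc3 and Nfkbie named after their values were seen. The feedback inhibitor genes Nfkbia (0.01) and Tnfaip3 (0.02) did not pass. Prostaglandin genes went both ways. Of 20 listed 12 were tested, and 5 of 12 were higher and 4 lower (median 0.11), or 5 and 3 with library totals (median 0.44). The limit of the filter on scarce members holds here too. The inducible synthase gene Ptgs2 (chr1:150100031-150108227) stood at 0.271 and 0.302 CPM in 10E EtOH, 0 and 0.367 in 11D EtOH, 21.9 in 10E IAA and 36.4 and 33.4 in 11D IAA (6.53 ± 0.28). The terminal synthase gene Ptges rose by 1.25 ± 0.12. The exporter gene Abcc4 (-0.89 ± 0.09) and Ptges3 (-0.64 ± 0.12) fell, as did the constitutive Ptgs1, which had 3 counts in all IAA libraries, and Ptgis (-0.67). The receptor genes Ptger3 (4.93) and Ptger4 (2.08) and the degrading enzyme gene Hpgd (2.01) rose. Ptgs1, Ptgis, the receptors and Hpgd were named after their values were seen. Calls that ended when 1 library was left out were those of Bst2 (FDR up to 0.194, without any library but 10E EtOH replicate 2 or 11D EtOH replicate 2), Nfkbie (FDR up to 0.0961, without 11D IAA replicate 2 or 10E IAA replicate 1) and Ptgis (FDR 0.0829 without 11D IAA replicate 2). These 3 calls also ended with library totals (FDR 0.330, 0.0969 and 0.200). Exons of Tap1, Irf3 and Cxcl16 overlap those of another gene.

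In signalling pathways single ligands, feedback genes and targets moved strongly while the lists as wholes went both ways. Genes of ERK feedback gave 6 higher and 7 lower of 21 (median -0.29, or 0.04 with library totals), with 4 lower without 10E IAA replicate 1. Errfi1 (1.29 ± 0.12) and Phlda1 (2.86 ± 0.29) rose, and Spred2 (-1.30 ± 0.11) and Etv5 (-0.94 ± 0.10) fell. Of LIF and STAT3 genes 6 of 15 were higher and 5 lower (median -0.18; 7 and 3 with library totals, median 0.15). The oncostatin receptor gene Osmr (4.30 ± 0.59, 4 counts in all EtOH libraries) and Ptpn11 (0.58 ± 0.09) rose, and the kinase genes Pim1 (-1.11 ± 0.10) and Pim3 (-0.80 ± 0.14) fell. Socs3 (-0.74), Il6st (-0.50) and Lifr (-0.38), named after their values were seen, also fell, and Stat3 did not pass (0.00). With library totals Il6st (FDR 0.105) and Lifr (FDR 0.677) did not pass. In the Wnt list 8 of 24 were higher and 8 lower (median 0.12; 13 and 8 with library totals, median 0.45). The secreted Wnt antagonist gene Dkk1 stood at 0.949 and 0.504 CPM in 10E EtOH, 1.58 and 0.551 in 11D EtOH, 25.4 in 10E IAA and 14.0 and 14.6 in 11D IAA (4.67 ± 0.30, FDR 6.5e-09). Wnt9a rose by 3.07 ± 0.28, while the receptor gene Lrp6 (-1.21 ± 0.10) and Notum, which inactivates Wnt proteins (-1.92 ± 0.19), fell. Axin2, a direct target of the pathway, did not pass (0.23).

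TGF-beta and activin targets also split: 4 of 15 were higher and 6 lower (median 0.05; 6 and 5 with library totals, median 0.38), and 2 were higher without 10E IAA replicate 1. The matrix gene Ltbp2 rose by 3.60 ± 0.30, while the activin subunit gene Inhbb (-3.15 ± 0.31) and the inhibitory Smad7 (-1.54 ± 0.16) fell. Bambi (0.69) and Bhlhe40 (0.48), named after their values were seen, also rose. In the Nodal list 4 of 14 were higher and 3 lower (median -0.05; 7 and 3 with library totals, median 0.28), and 2 were higher without 11D IAA replicate 1. The antagonist gene Lefty1 rose by 1.95 ± 0.20. Tdgf1, the co-receptor Cripto (-1.40 ± 0.10), the convertase gene Pcsk6 (-1.08 ± 0.10) and the receptor gene Acvr1b (-1.06) fell, Furin (0.34) and Lefty2 (0.38) rose, and Nodal did not pass (0.23). Acvr1b, Furin and Lefty2 were named after their values were seen. Of the BMP list 4 of 14 were higher and 2 lower (median 0.07; 8 and 1 with library totals, median 0.40), and 1 was lower without 10E IAA replicate 1. Id2 (from 1.59 ± 0.560 to 26.8 ± 16.6 CPM, 4.28 ± 0.29) and Id1 (3.18 ± 0.36), inhibitors of bHLH factors, rose. So did Msx1 (3.20) and Smad1 (0.48), named after their values were seen, and Id3 did not pass (-0.03). Bmp4 fell by 0.89 ± 0.23 and Bmpr1a by 0.32 ± 0.10, the latter at 0.01 with library totals. Among these genes, leaving out 1 library ended the calls of Bmpr1a (FDR 0.0669 without 10E IAA replicate 1), Bambi (FDR 0.0802 without 10E IAA replicate 1) and Bhlhe40 (FDR up to 0.383, without 10E IAA replicate 1 or 10E EtOH replicate 1). The same was true of Furin (FDR up to 0.111, without 10E IAA replicate 1, 11D IAA replicate 1 or 11D EtOH replicate 2) and Lefty2 (FDR up to 0.206, without 11D IAA replicate 1, 10E EtOH replicate 1, 11D EtOH replicate 2 or 11D EtOH replicate 1).

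In the Notch list 7 of 16 were higher and 4 lower (median 0.21; 9 and 3 with library totals, median 0.55). The feedback gene Nrarp (2.32 ± 0.23) and the ligand gene Jag2 (1.63 ± 0.20) rose. The receptor gene Notch4 (-2.08 ± 0.19) and the DNA-binding factor gene Rbpj (-0.89 ± 0.09) fell, beside Mfng (-3.20) and Hes1 (-0.66), named after their values were seen. Of Hedgehog genes 5 of 12 were higher and 6 lower (median -0.12; 5 and 4 with library totals, median 0.21). The transcription factor gene Gli2 (chr1:118834132-119053619) stood at 250.2 and 257 CPM in 10E EtOH, 224 and 184 in 11D EtOH, 56.7 in 10E IAA and 47.8 and 38.6 in 11D IAA (-2.22 ± 0.11, edgeR FDR 7.76e-10). The receptor gene Ptch1 fell by 0.75 ± 0.09. The ligand gene Dhh (4.81 ± 0.64, 4 counts in all EtOH libraries) and the antagonist gene Hhip (1.87 ± 0.33) rose, as did Gli1 (1.06), Sufu (0.45) and Cdon (0.31), named after their values were seen. For retinoic acid 3 of 14 were higher and 4 lower (median -0.05; 4 and 1 with library totals, median 0.28), with 2 lower without 11D IAA replicate 2. The retinol dehydrogenase gene Rdh10 (2.14 ± 0.20), the binding protein gene Crabp2 (3.00 ± 0.32) and the receptor gene Rarb (1.39) rose. Aldh1a3 (-1.79 ± 0.39), Rxra (-0.44 ± 0.12) and Dhrs3 (-0.74) fell, where Rarb and Dhrs3 were named after their values were seen. Of SRF and YAP targets 11 of 26 were higher and 9 lower (median -0.04; 13 and 4 with library totals, median 0.29). The matricellular genes Ccn2 and Ccn1 (2.24 ± 0.18) rose and the actin-binding genes Actn1 (-0.90 ± 0.10) and Anln (-0.63 ± 0.09) fell. The calls of Hes1 (FDR up to 0.312, without 10E IAA replicate 1 or 11D IAA replicate 2) and Cdon (FDR up to 0.23, without any library but 11D EtOH replicate 2) ended when 1 library was left out. That held also for Rarb (FDR up to 0.104, without 11D IAA replicate 2 or 11D EtOH replicate 2) and Dhrs3 (FDR 0.0633 without 11D IAA replicate 2). With library totals Hes1, Dhrs3 and Rxra did not pass (FDR 0.155, 0.131 and 0.505). Exons of Phlda1, Pim1, Notum, Ltbp2, Pcsk6, Bmp4, Bmpr1a, Nrarp, Dhh, Hhip and Actn1 overlap those of another gene.

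**Figure D4:**
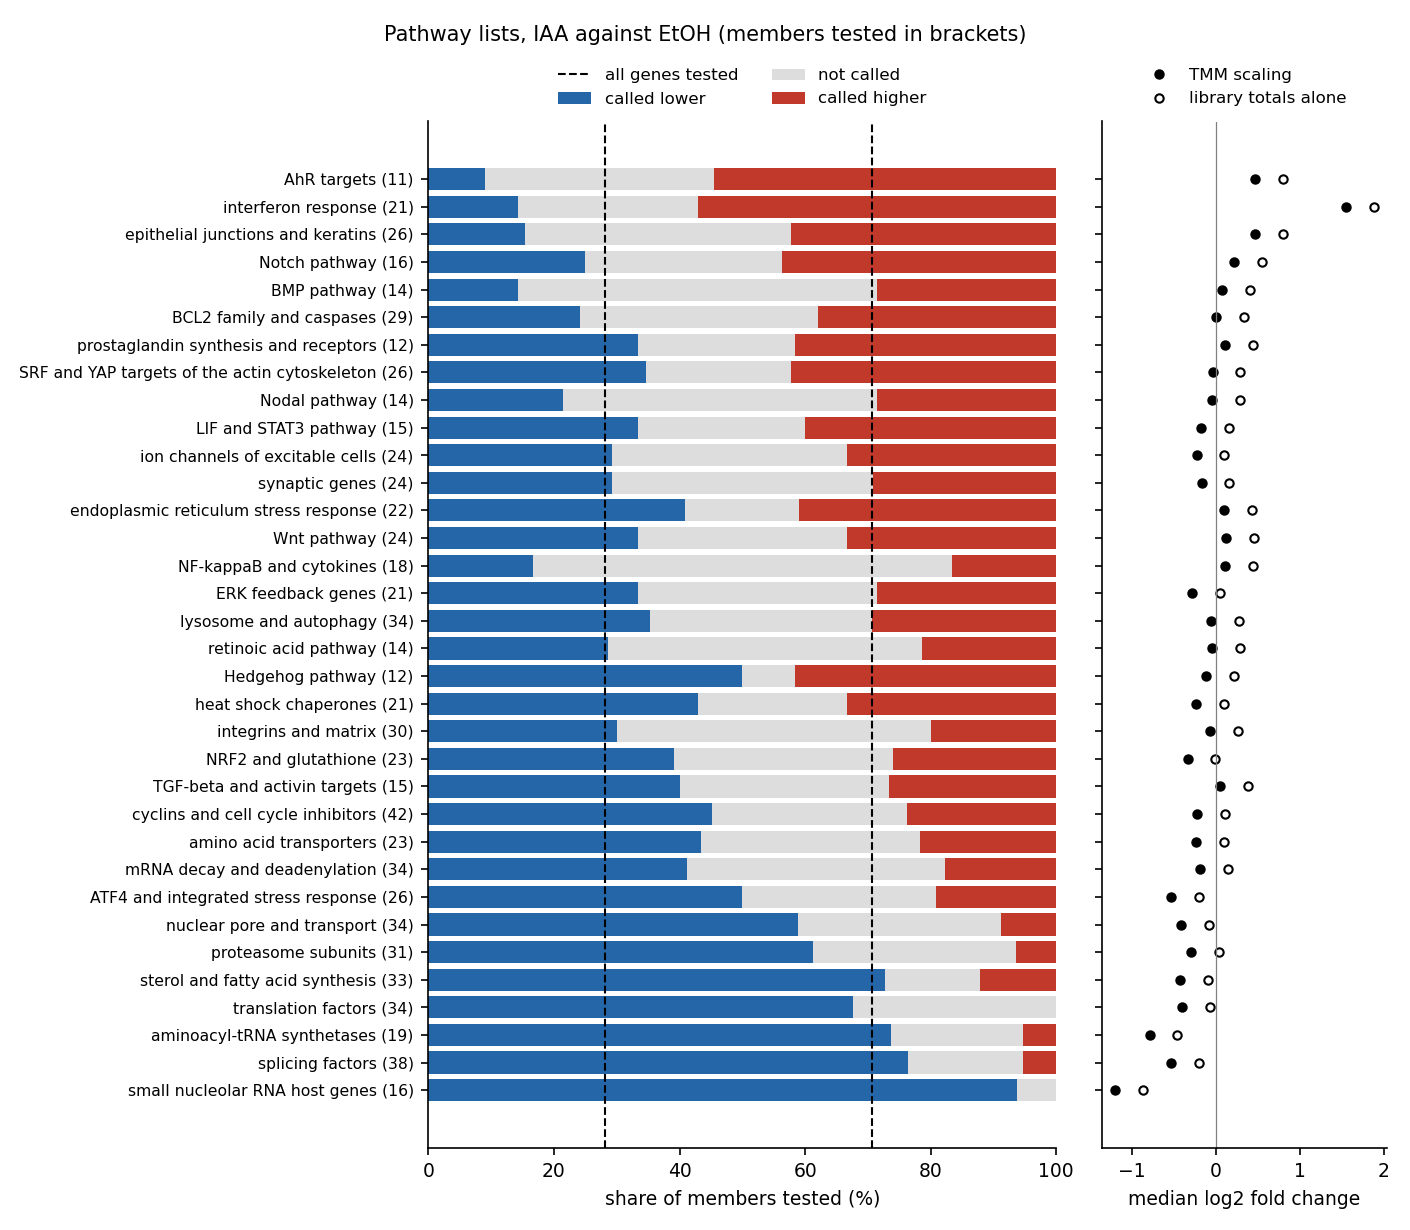
Share of tested members called lower (blue), not called (grey) and called higher (red) in 34 pathway lists, ordered by the difference of the shares, with dashed lines at the shares of all genes tested (28.1% lower, 29.3% higher). The right panel gives each list's median log2 fold change with TMM (filled) and with library totals (open), from -1.21 for small nucleolar RNA host genes to 1.55 for interferon response genes.

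More epithelial junction and keratin genes were higher than lower: 11 of 26 were higher and 4 lower (median 0.46; 14 and 3 with library totals, median 0.79). The list holds 33 genes, and scarce members pass the filter mainly through libraries where they are high. Without a filter on low counts 11 of 33 were higher and 5 lower (median 0.43). The list's median level was 10.98 CPM. All genes of 2 to 10 CPM had 35.3% higher and 18.5% lower, and those of 10 to 50 CPM 28.7% and 31.1%. The difference from these shares was not tested. The tight junction gene Cldn6 went from 4.62 ± 1.77 to 27.9 ± 5.84 CPM (2.52 ± 0.24, edgeR FDR 2.84e-07) and the epithelial splicing factor gene Esrp2 rose by 1.34 ± 0.14. The desmoglein gene Dsg2 (-0.94 ± 0.09) and, named after their values were seen, Tjp3 (-1.31) and the E-cadherin gene Cdh1 (-0.40, or -0.07 with library totals, FDR 0.524) fell. Tjp3 was not called without 10E IAA replicate 1 or 11D IAA replicate 2 (FDR up to 0.0859). Of integrins and matrix genes 6 of 30 were higher and 9 lower (median -0.07; 10 and 7 with library totals, median 0.26), with 3 higher without 10E IAA replicate 1. The anchoring collagen gene Col7a1 (2.18 ± 0.19) rose, and the integrin genes Itgb5 (-1.29 ± 0.11) and Itga3 (-1.86 ± 0.17) fell, while Itgb1 did not pass (-0.05). Genes of excitable cells, at low levels here, split evenly. Among ion channels 8 of 24 were higher and 7 lower (median -0.23; 9 and 3 with library totals, median 0.10). The potassium channel gene Kcnj4 (2.85 ± 0.25) rose, and Kcna2 (-3.42 ± 0.47) and Kcnh2 (-2.04 ± 0.29) fell. Among synaptic genes 7 of 24 were higher and 7 lower (median -0.17; 9 and 2 with library totals, median 0.15). The postsynaptic scaffold gene Dlg4 (2.61 ± 0.21) and Vamp1 (1.52 ± 0.15) rose, and the receptor genes Gabbr1 (-1.26 ± 0.12) and Grin1 (-1.72 ± 0.23) fell. Exons of Esrp2, Dsg2, Col7a1 and Grin1 overlap those of another gene.

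Cell cycle and apoptosis genes went both ways. Of cyclins and cell cycle inhibitors 10 of 42 were higher and 19 lower (median -0.23; 14 and 11 with library totals, median 0.10). Mxd1 and Mxd4, MYC antagonists that share its partner MAX, rose by 2.55 ± 0.20 and 2.43 ± 0.17. The activator gene E2f2 (-2.04 ± 0.19) and the G1 kinase gene Cdk6 (-0.87 ± 0.11) fell, and Myc did not pass (-0.08). Of the BCL2 family and caspases 11 of 29 were higher and 7 lower (median 0.00; 16 and 3 with library totals, median 0.33). Pmaip1, which encodes the BH3-only protein NOXA, stood at 6.10 and 5.54 CPM in 10E EtOH, 4.11 and 4.13 in 11D EtOH, 70.3 in 10E IAA and 31.7 and 35.8 in 11D IAA (3.32 ± 0.16, FDR 7.26e-10). Bcl2l11, which encodes BIM, rose by 2.26 ± 0.13. Bax (-0.79 ± 0.10) and the caspase inhibitor gene Xiap (-0.89 ± 0.11) fell, and the survival gene Mcl1 did not pass (-0.10). Exons of Mxd4, Cdk6 and Bax overlap those of another gene.

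Markers of the labelled cell type were present in every library, and the other cell types examined were scarce. The 12 embryonic stem cell markers summed to 5451 to 7344 CPM in EtOH and 2551 to 2886 CPM in IAA libraries, and 11 of them were lower. The 12 fibroblast markers summed to 24.0 to 37.2 CPM in EtOH and 20.1 to 26.6 in IAA libraries, with Postn and S100a4 at 0 in all 7. The 10 endothelial markers summed to 39.4 to 52.7 and 33.9 to 38.8, with Emcn at 0. The 12 blood cell markers summed to 1.90 to 5.96 CPM in EtOH and 8.33 to 10.5 in IAA libraries, where Spi1 rose and the defining Lyz2, Hbb-bs and Hba-a1 were at 0 in all 7. The part of these cells in any result was not tested. The 12 muscle markers summed to 11.3 to 15.8 and 12.8 to 20.3 CPM.

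Most changes had the same direction in both lines. Fitted within line 10E, 17.1% of genes were called higher and 18.3% lower, and within line 11D 23.1% higher and 23.1% lower. Of the 10281 genes called over both lines, 10234 (99.5%) had the same sign in each, and of the 5373 called in each line alone 0 had opposite signs. They made up 84.8% of the calls of 10E and 64.9% of those of 11D, which had 1 more IAA library. Across genes the log2 fold changes of the lines gave r = 0.790 (Spearman rho 0.831), or 0.916 over 9773 genes with at least 10 CPM. This is a description across genes that share libraries within a line and are not independent replicates. The share of 99.5% follows in part from how the genes were chosen, since the joint fit favours genes whose lines agree. The line by treatment interaction called 0 genes (0%) by edgeR, with a smallest FDR of 0.574 and 872 genes (4.87%) at an unadjusted p under 0.05. DESeq2 called 1, the channel gene Aqp3, whose log2 fold change was 0.97 in 10E and 2.09 in 11D (FDR 0.00709 by DESeq2, 0.574 by edgeR). Aqp3 stood at 144 and 129.5 CPM in 10E EtOH, 81.8 and 70.7 in 11D EtOH, 268 in 10E IAA and 319.5 and 326 in 11D IAA. The lines lay further apart in EtOH than in IAA libraries. The interaction rests on a single 10E IAA library and its power was not measured, so the lack of calls does not show that the lines responded alike.

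**Figure D5:**
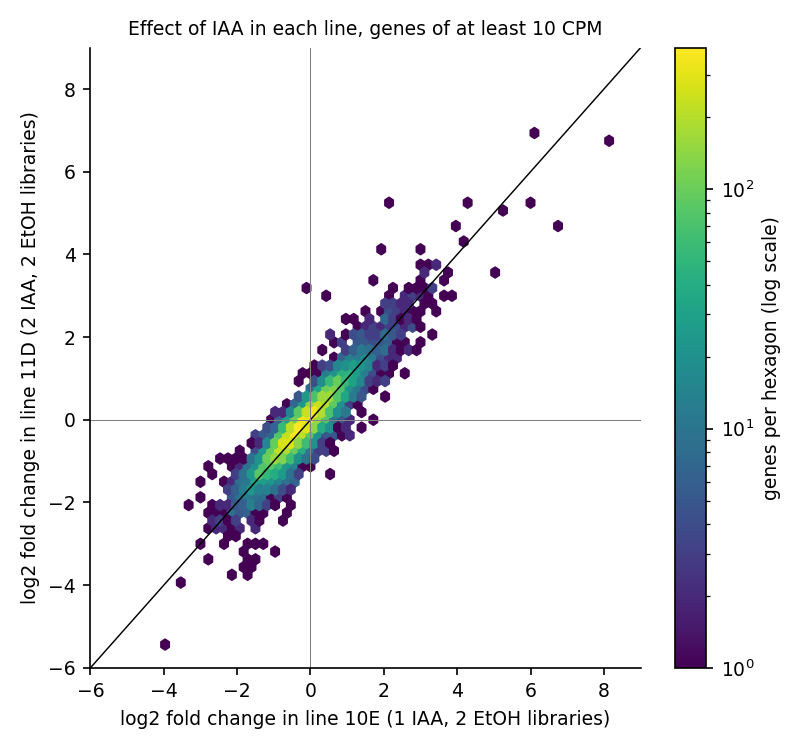
Log2 fold change of IAA against EtOH in line 10E (x axis) and line 11D (y axis) for the 9773 genes with a mean of at least 10 CPM, as hexagons shaded by the number of genes, with the diagonal drawn. Genes lie along the diagonal with r = 0.916.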

How the data were processed

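Total RNA of tagged cells was sequenced from directional libraries, per the labels' protocols. The authors deposited whole-number counts per gene for 55291 genes. STAR, deepTools and the build mm10 are named, per the submitters' processing notes. Their versions, the counter, its annotation and its strand setting: not given in the sources used here. The 3 other sample columns were not used. Libraries held 3100127 to 13510163 counts, which limits precision for scarce genes. Counts were fitted with edgeR 4.0.16 in R 4.3.3 by the quasi-likelihood F test, with line and treatment as terms, TMM, filterByExpr on line by treatment groups and Benjamini-Hochberg adjustment over 17904 genes. A fit with 1 coefficient per line and treatment gave the effect in each line and the interaction. Library totals alone, DESeq2 1.42.0 and its size factors, other filters, no line term, a replicate block and leaving out each library were the alternatives. Standard errors are the fold change over the square root of F. The fit recovered most known changes in simulated counts. Few genes changed there and the lines did not differ, so the simulation does not probe the scaling. Spans and gene types come from GENCODE M21 (GRCm38), matched for 17468 genes by symbol, and promoters from RefSeq. Library measures were tested with exact permutation tests (scipy 1.17.1).

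The replicate numbers were checked for pairing. Deviations of same-numbered libraries correlated at 0.156 between EtOH and IAA of line 11D, and at -0.166 and -0.108 between the lines. With 2 libraries per group these values cannot settle whether the numbers pair the libraries, and the main fit does not pair them. The genes, the 34 pathway lists and the 5 marker lists were chosen with earlier results of these data known, and the chosen lists give no independent support. Named by rule were Supt16 and Ssrp1, and of genes called with the same sign in both lines, the 6 most abundant with at least a 2-fold change in each direction, the 8 highest folds from at least 5 CPM and the 8 lowest from at least 20 CPM in EtOH libraries, the 5 with the highest IAA level from under 0.5 CPM, and for each list up to 2 called members in each direction, by FDR. The ranked sets exclude pseudogenes, Riken clones, predicted genes and genes with an identifier in place of a symbol. Values of several genes chosen this way are not reported here.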

Additional observations from a re-analysis of the deposited data

Results flagged for a closer look

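In 4 genes and 1 library measure a single EtOH library stood apart from the other 3 by Dixon's criterion for 4 samples, out of 183 groups examined, where chance gives about 1 in 20. Cyp1a1 was at 9.18 CPM in 11D EtOH replicate 2 and at 0.604 to 1.76 CPM in the others. Kcna2 was at 7.44 CPM in the same library and at 4.23 to 4.61 CPM in the others. Scap was at 64.8 CPM in 11D EtOH replicate 1 against 46.5 to 49.2, and Zfhx3 at 88.1 CPM there against 56.7 to 60.6. Genes over 200 kb took 3.03% of protein-coding counts in 10E EtOH replicate 2 and 3.30% to 3.31% in the other EtOH libraries.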

How the results depend on the processing

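With library totals alone 2851 genes were lower and 886 at least 2-fold lower, and 7713 and 4445 higher; this scaling moves the median log2 fold change of all genes from 0.03 to 0.36. Under DESeq2, its size factors, other filters, no line term, either replicate block and without the 2 EtOH libraries rich in CT010467.1, the 4 counts of calls stayed within 1.5 times, with 4729 to 5472 higher and 4284 to 5205 lower. Leaving out 1 library gave 3888 to 4907 higher and 4016 to 5085 lower genes, 2418 to 3088 and 1354 to 1789 at least 2-fold. The replicate block gave 5047 higher and 4872 lower genes with the number beside the line and 5252 and 5205 with the number within the line. Whether the numbers pair the libraries is not known. With the block 5825 genes were called in 10E, 7997 in 11D and 0 in the interaction. The interaction called 1 gene with DESeq2, 27 without a filter on low counts, and 0 to 2 when 1 library was left out (2 without 10E EtOH replicate 1); without 10E IAA replicate 1 it cannot be given, and the cause of these differences was not tested. Of 174 genes followed across the settings, 4 lost their call and 1 gained one with library totals. Another 2 changed sign there and were no longer called, Bmpr1a (0.014, edgeR FDR 0.912) and Eif2s3y (0.086, FDR 0.489). Further called list members lost their calls with library totals, among them Cdh1 (FDR 0.524), Lifr (FDR 0.677) and Srebf2 (FDR 0.334). The 174 genes therefore do not show how often calls held among all genes. CT010467.1 turned to 0.57 without the 2 rich EtOH libraries, and the cause of these changes was not tested. At a lowest depth of 3100127 counts, calls of scarce genes are limited by depth.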

Other observations

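The following genes were chosen after their values were seen, and are given as values. The gamma protocadherins, cell adhesion genes of 1 cluster whose variable first exons share constant exons, were higher for 20 of 22 members tested by edgeR. None was lower (0 by edgeR, 0 by DESeq2 and 0 by edgeR before adjustment, at p under 0.05). Their summed level was 162 to 187 CPM in EtOH and 327 to 371 CPM in IAA libraries, and the log2 fold changes ran from 0.06 to 2.75 with a median of 1.12 (1.45 with library totals). Pcdhgc3 stood at 42.2 and 39.8 CPM in 10E EtOH, 44.2 and 39.9 in 11D EtOH, 74.1 in 10E IAA and 83.9 and 70.5 in 11D IAA (0.87 ± 0.11), and Pcdhga6 rose by 2.75 ± 0.30, while Pcdhga1 (0.30 ± 0.17) and Pcdhga8 (0.06 ± 0.19) did not pass. Reads of the shared exons cannot be assigned to 1 member, so the members are not independent counts.

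4 predicted genes that rose, Gm10800, Gm10801, Gm21738 and Gm10717, are given first. Gm10800 stood at 4.34 and 25.7 CPM in 10E EtOH, 13.3 and 11.2 in 11D EtOH, 68.7 in 10E IAA and 481 and 364 in 11D IAA (3.95 ± 0.51, edgeR FDR 8.36e-06). Gm10801 went from 1.91 ± 1.27 to 28.7 ± 20.6 CPM (3.47 ± 0.40), Gm21738 from 5.57 ± 3.41 to 32.7 ± 22.2 CPM (2.14 ± 0.48) and Gm10717 from 0.480 ± 0.399 to 4.85 ± 3.67 CPM (2.99 ± 0.57). In the order Gm10800, Gm10801, Gm21738 and Gm10717 their log2 fold changes were 2.14, 1.90, 0.41 and 1.66 in 10E and 5.14, 4.20, 3.10 and 3.57 in 11D. The interaction test did not pass for them (edgeR FDR 0.938 to 0.940). Gm23935 was at 2161 CPM in 10E EtOH replicate 2 and 8733 CPM in 11D EtOH replicate 1, the libraries rich in CT010467.1, and at 11.5 to 190 CPM elsewhere. The mitochondrial ribosomal RNA gene mt-Rnr1 was at 162 CPM in 11D IAA replicate 1 and at 2.36 to 15.3 CPM elsewhere, and mt-Rnr2 at 249.9 CPM there and 18.7 to 39.5 CPM elsewhere.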
